A study of Mus musculus with 6 samples.

Results

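The 10 genes described here are the mRNAs of NF-κB, a family of transcription factors, and of proteins grouped as its inhibitors. They are the 5 subunits Nfkb1, Nfkb2, Rela, Relb and Rel and the IκB family genes Nfkbia, Nfkbib, Nfkbie and Nfkbiz. The last is Tnfaip3, which encodes the ubiquitin-editing protein A20. Nfkbiz is counted with the inhibitors by family, although its product is nuclear and does not hold dimers in the cytoplasm. They were found by gene symbol, and all 10 are among the 22375 rows of the deposited table of FPKM, a fragment number scaled by transcript length and library size, and among the 11593 genes that could be tested. The cells were C2C12, an established line of mouse myoblasts, grown on an elastic plate coated with poly-lysine. The CON group was not stretched, the 4H group underwent cyclic stretch at 15% elongation for 4 h, and each group had 3 libraries. The labels number the libraries titled 4H1, 4H3 and 4H4 as replicates 1, 2 and 3 of the 4H group. The labels call the libraries of each group replicate biosamples 1 to 3 but do not say whether these came from separate cultures. The p values thus measure the spread between libraries, which may be technical.

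NF-κB works as dimers of its subunits. In resting cells the classical IκB proteins, encoded by Nfkbia (IκBα), Nfkbib (IκBβ) and Nfkbie (IκBε), bind the dimers and keep them in the cytoplasm. When TNF, IL-1 or Toll-like receptors fire, the IKK kinase complex marks the IκBs for degradation, and the freed dimers enter the nucleus and bind κB sites. Several of the genes that they switch on encode their own inhibitors, IκBα and A20 above all, which closes a negative feedback loop. In muscle the pathway is known from inflammation, atrophy and the control of myoblast differentiation.

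κB sites are the sequences that NF-κB dimers bind, so the promoters of the inhibitors that rose are shown first. RefSeq promoter windows on GRCm38.p6, from 250 bases before to 50 bases after the start, were at hand for 7 of the 10 members (10 windows, since some genes have several starts), and the entries for Nfkb1, Relb and Nfkbiz are missing. The κB consensus, a motif of 10 letters, was searched on both strands, and overlapping matches were counted as 1 site. It was found in 7 of the 10 windows and in 5 of the 7 genes, Nfkb2, Rel, Nfkbia, Nfkbie and Tnfaip3, while 8.46% of all 32851 windows of the table and 12.4% of the 8952 tested genes with a window held it. The 130 bases before the RefSeq start are printed for the 3 inhibitors whose stretch lies outside annotated exons, 5′ to 3′ on the strand of the gene, with the κB matches in capitals. They lie at chr12:55492648-55492777 on the minus strand (Nfkbia), chr17:45555570-45555699 on the plus strand (Nfkbie) and chr10:19015411-19015540 on the minus strand (Tnfaip3). The RefSeq start of Tnfaip3 lies inside the gene as GENCODE draws it, since another annotated transcript starts further upstream, so its stretch lies within the GENCODE gene, between exons.
Nfkbia: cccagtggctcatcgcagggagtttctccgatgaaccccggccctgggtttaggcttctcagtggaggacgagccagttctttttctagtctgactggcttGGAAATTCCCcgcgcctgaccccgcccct
Nfkbie: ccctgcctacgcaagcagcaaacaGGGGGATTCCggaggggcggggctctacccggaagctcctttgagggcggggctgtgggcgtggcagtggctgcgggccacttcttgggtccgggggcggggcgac
Tnfaip3: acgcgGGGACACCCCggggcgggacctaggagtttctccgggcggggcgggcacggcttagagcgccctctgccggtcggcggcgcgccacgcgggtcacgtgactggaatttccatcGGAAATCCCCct

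Counted from the RefSeq start of each window, the match of Nfkbia begins at base -29 and that of Nfkbie at base -106, and those of the first window of Tnfaip3 begin at bases -125 and -12. Nfkb2 had GGGAATTCCCC at base -39 and GGGGCTTTCC at base -11 of its first window. Its other windows, which overlap each other, share GGGACTTTCC, and the second also has GGAATGTCCC at base -236. Rel had GGGAAATCCCC at base -92. No match stood in the windows of Rela and Nfkbib or in the second window of Tnfaip3. A match is a run of letters and not a measured binding site.

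**Figure D1:**
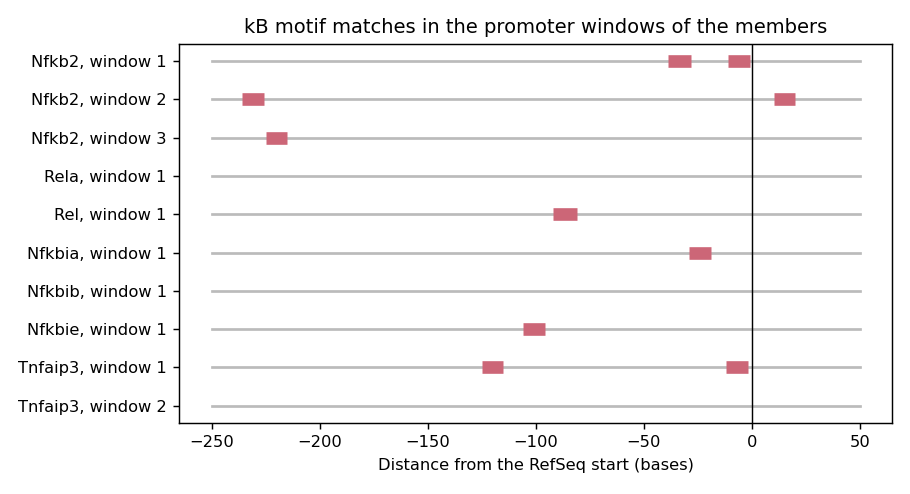
Promoter windows of the 7 members with a RefSeq entry, drawn as grey lines from 250 bases before to 50 bases after the start (x axis, bases), with κB motif matches as red bars. Nfkb2, Rel, Nfkbia, Nfkbie and the first window of Tnfaip3 hold at least 1 match, and the windows of Rela and Nfkbib hold none.

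FPKM is scaled for transcript length and library size and does not hold read numbers, so depth is unknown and no counting error is given. Rows at 0 in every library numbered 5799. Rows above 0 numbered 14125 to 14186 in the CON libraries and 14899 to 14972 in the 4H libraries. No library stood apart, since log2 values of 2 libraries correlated at 0.992 to 0.993 within a group and at 0.967 to 0.970 between the groups (Pearson across genes, and genes are not replicates). The myoblast genes Myod1, Myf5, Des and Cdh15 were expressed in all 6 libraries, and Pax7 and Myog were below 0.7 FPKM in each. They did not move together. Myod1 (log2 fold change 1.74), Des (0.31) and Cdh15 (0.68) rose and Myf5 (-0.67) fell, and the sum of all 6, mostly Des, was 100.5 to 100.9 FPKM without stretch and 127 to 133 FPKM after it. Among markers of immune cells, Ptprc and Adgre1 were listed at 0 in every library, and Itgam and Cd3e stayed below 0.06 FPKM. The summed level of the immune markers was nevertheless 6.73 to 8.51 FPKM without stretch and 16.5 to 18.6 FPKM after it, almost all of it from Cd68, a lysosomal protein gene (7.57 and 16.4 FPKM on average), with Csf1r at 0.00906 and 1.08 FPKM. The part of these differences in the results below was not tested. Endothelial markers summed to 0.147 to 0.287 FPKM in CON and 0.467 to 0.619 FPKM in 4H, and epithelial markers, with Epcam listed at 0 throughout, to 0.0397 to 0.148 and 0.273 to 0.747 FPKM. Both sums were low, and higher in each 4H library than in any of CON, and their part in the results was not tested either. In bulk RNA a change in the number of cells that express a gene and a change in RNA per cell cannot be told apart.

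In the comparison of 4H with CON, 6 of the 10 members rose, 1 fell and 3 did not pass the test (limma on log2(FPKM + 0.5), Benjamini-Hochberg adjusted p at or below 0.05 over all genes tested). Of all genes tested, 22.6% rose and 24.1% fell by the same rule, so changed genes were common in this experiment. The rises were those of Nfkb1, Nfkb2, Nfkbia, Nfkbie, Nfkbiz and Tnfaip3, and the fall was that of Nfkbib. The median log2 fold change of the members was 0.26, against -0.01 over all genes tested. The libraries of the groups did not overlap in 8 members, 7 of them higher and 1 lower, where 56.7% of all tested genes did not overlap. Only Tnfaip3 also passed the fold threshold of the study, a log2 fold change of 1, which 2.61% of all tested genes passed upwards. The 5 subunits had a median log2 fold change of 0.09 with 2 rises. The 5 inhibitors, counted with Nfkbiz, had a median of 0.68 with 4 rises and 1 fall, and this median is the value of Nfkbiz.

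**Figure D2:**
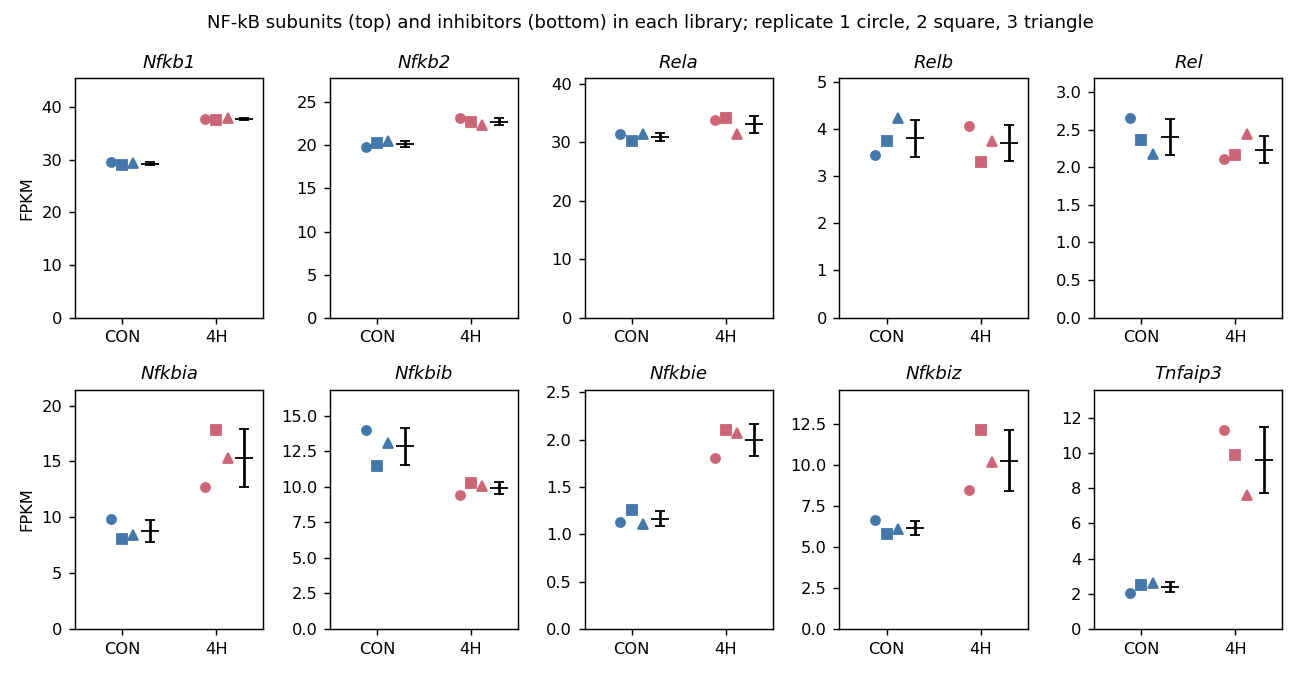
FPKM (y axis, from 0) of each member in the 3 CON and 3 4H libraries, with 1 symbol per replicate and the mean ± SD in black. Tnfaip3, Nfkbia, Nfkbie and Nfkbiz are higher in all 4H libraries than in any CON library, Nfkbib is lower, and Relb and Rel overlap.

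Among the subunits, the precursors of p50 and p52 rose. Nfkb1 (ENSMUSG00000028163, mm10 chr3:135584655-135691547, minus strand) encodes p105, which is processed to p50 and, uncut, acts as an inhibitor through its own ankyrin repeats. It was at 29.5, 28.9 and 29.3 FPKM in CON replicates 1 to 3 and at 37.7, 37.4 and 37.8 FPKM in 4H replicates 1 to 3. Both groups were tight, with coefficients of variation of 0.993% and 0.558%, and did not overlap. This gave a log2 fold change of 0.36 (SE 0.03, limma adjusted p = 6.07e-05), a level 1.29 times that of CON.

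Nfkb2 (ENSMUSG00000025225, chr19:46304320-46312385, plus strand) encodes p100, the precursor of p52 and the substrate of the non-canonical branch of the pathway. It was at 19.8, 20.3 and 20.5 FPKM without stretch, against 23.2, 22.7 and 22.4 FPKM after it. The groups were close but did not overlap, and the log2 fold change was 0.17 (SE 0.04, limma adjusted p = 0.00919). Exons of Nfkb2 overlap those of Psd and of AC114539.1 on the other strand. The libraries were strand-specific, but whether the counting used the strand is not given in the sources used here, and reads of those genes could enter its value.

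Rela (ENSMUSG00000024927, chr19:5637483-5648130, plus strand) encodes p65, the subunit that carries the transactivation domain of the canonical dimer. It was at 31.3, 30.2 and 31.3 FPKM without stretch, against 33.7, 34.1 and 31.4 FPKM after it. All 4H values were above all CON values, but 4H replicate 3 only barely, and the difference did not pass the test (log2 fold change 0.09, 95% interval -0.01 to 0.19, limma adjusted p = 0.111). Without 4H replicate 3 it did pass, at a log2 fold change of 0.13 and a limma adjusted p of 0.0430. It also passed after rescaling to TPM (0.0407) and quantile normalization (0.0416), and over all alternatives the adjusted p from limma ran from 0.0407 to 0.278. Rescaling to TPM also moved the median log2 fold change of all tested genes, from -0.01 to 0.03.

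Relb (ENSMUSG00000002983, chr7:19606217-19629438, minus strand), the partner of p52, was at 3.45, 3.74 and 4.23 FPKM without stretch, against 4.06, 3.30 and 3.74 FPKM after it. Rel (ENSMUSG00000020275, chr11:23736847-23770970, minus strand), which encodes c-Rel, known best from lymphocytes, was at 2.65, 2.37 and 2.18 FPKM and at 2.11, 2.16 and 2.44 FPKM. The groups overlapped in both genes. The log2 fold change of Relb was -0.03 with a 95% interval of -0.27 to 0.20 (limma adjusted p = 0.810). That of Rel was -0.08 with an interval of -0.32 to 0.16 (adjusted p = 0.544), so a rise as large as that of Nfkb1 lies outside both intervals.

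The classical IκBs moved in opposite directions. Nfkbia (ENSMUSG00000021025, chr12:55489410-55492647, minus strand), the fast-turning inhibitor of the feedback loop, was at 9.89, 8.04 and 8.39 FPKM without stretch, against 12.7, 17.8 and 15.3 FPKM after it. Every 4H library was higher than every CON library, and the spread among 4H libraries was wide, with replicate 1 lowest and replicate 2 highest. This gave a log2 fold change of 0.76 (SE 0.12, limma adjusted p = 0.00137), and the mean rose 1.74 times, from 8.77 ± 0.98 to 15.3 ± 2.58 FPKM (SD, n = 3 libraries each).

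Nfkbie (ENSMUSG00000023947, chr17:45555703-45563169, plus strand), the least abundant member, was at 1.13, 1.25 and 1.11 FPKM without stretch, against 1.80, 2.10 and 2.07 FPKM after it. The groups did not overlap, and the mean rose 1.71 times (log2 fold change 0.58, SE 0.11, limma adjusted p = 0.00261). At this level the pseudocount of 0.5 understates the change, and with a pseudocount of 0.1 the log2 fold change was 0.73.

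Nfkbib (ENSMUSG00000030595, chr7:28758251-28767512, minus strand), which encodes the IκB known for slower and more lasting control, was the member that fell. It was at 14.0, 11.5 and 13.0 FPKM without stretch, against 9.40, 10.3 and 10.0 FPKM after it. The groups did not overlap, with the highest 4H library below the lowest CON library. This gave a log2 fold change of -0.36 (SE 0.08, limma adjusted p = 0.00642). Exons of Nfkbib overlap those of Sirt2 and Ccer2 on the other strand. Sirt2 averaged 28.5 FPKM without stretch and 25.8 FPKM after it, with a log2 fold change of -0.14 that did not pass the test (limma adjusted p = 0.0745), and whether its reads entered the value of Nfkbib was not tested.

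Nfkbiz (ENSMUSG00000035356, chr16:55811375-55838899, minus strand) encodes IκBζ, a nuclear member of the family that binds p50 on DNA and is needed for a secondary set of genes rather than holding dimers in the cytoplasm. It was at 6.65, 5.78 and 6.12 FPKM without stretch, against 8.47, 12.2 and 10.2 FPKM after it. All 4H libraries were higher, again with replicate 1 lowest and replicate 2 highest. The mean rose from 6.19 ± 0.44 to 10.3 ± 1.86 FPKM (SD, n = 3 each), with a log2 fold change of 0.68 (SE 0.12, limma adjusted p = 0.00225).

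Tnfaip3 (ENSMUSG00000019850, chr10:19000910-19015657, minus strand) changed most of the 10. Its product A20 removes and adds ubiquitin chains on signalling proteins such as RIPK1 and thereby stops the signal upstream of IKK. It was at 2.06, 2.47 and 2.60 FPKM without stretch, against 11.3, 9.91 and 7.60 FPKM after it. Even the lowest 4H library was far above the highest CON library, and here replicate 1 was the highest of its group and replicate 3 the lowest. The mean rose 4.05 times, from 2.38 ± 0.28 to 9.62 ± 1.88 FPKM (SD, n = 3 each). This gave a log2 fold change of 1.80 (SE 0.14, limma adjusted p = 2.67e-05), higher than that of 99.5% of all tested genes, and with single libraries left out it ran from 1.68 to 1.95.

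**Figure D3:**
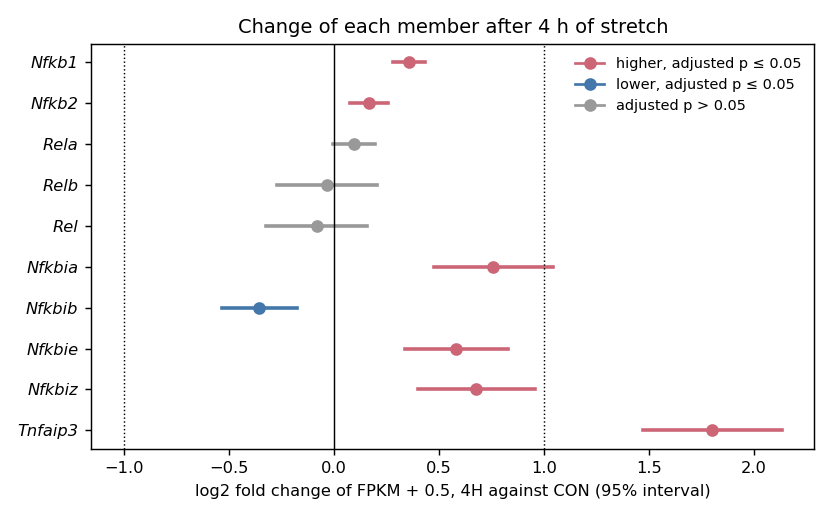
Log2 fold change of FPKM + 0.5 (x axis) of each member in 4H against CON, with its 95% interval from limma and colour by adjusted p. The dotted lines mark a log2 fold change of -1 and 1, which only Tnfaip3 passes, and the intervals of Rela, Relb and Rel reach across 0.

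FPKM is scaled per length, so levels can be set side by side and added up. In the CON group the order from high to low was Rela, Nfkb1, Nfkb2, Nfkbib, Nfkbia, Nfkbiz, Relb, Rel, Tnfaip3 and Nfkbie, and of these neighbours only Rel and Tnfaip3 overlapped between libraries. In the 4H group the order was Nfkb1, Rela, Nfkb2, Nfkbia, Nfkbiz, Nfkbib, Tnfaip3, Relb, Rel and Nfkbie, and the libraries of Nfkbib overlapped with those of its neighbours Nfkbiz and Tnfaip3. Nfkbib thus went from rank 4 to rank 6, Nfkbia from rank 5 to rank 4 and Tnfaip3 from rank 9 to rank 7. Nfkb1 and Rela changed places, and the ratio of Nfkb1 to Rela was 0.945 ± 0.012 in the CON group and 1.14 ± 0.056 in the 4H group (SD, n = 3).

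The make-up of the classical IκB mRNAs shifted more than their total. Nfkbib supplied 56.0, 55.2 and 57.9% of the summed FPKM of the classical IκBs in the CON libraries and 39.4, 33.9 and 36.6% in the 4H libraries. Nfkbia supplied 39.5, 38.7 and 37.2% in the CON libraries and 53.1, 59.1 and 55.8% in the 4H libraries, so it was the lesser part in each CON library and the larger in each 4H library. Nfkbie went from 5.16 ± 0.79% to 7.36 ± 0.34% (SD, n = 3). The sum itself was 25.0, 20.8 and 22.5 FPKM in the CON libraries and 23.9, 30.2 and 27.4 FPKM in the 4H libraries, and the groups overlapped.

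The summed subunits were 86.7, 85.5 and 87.5 FPKM in the CON libraries and 101, 99.6 and 97.8 FPKM in the 4H libraries, which did not overlap. Most of this gain came from Nfkb1, whose share of the subunits went from 33.8 ± 0.27% to 37.9 ± 0.70% (SD, n = 3). The ratio of classical IκBs to subunits was 0.289, 0.243 and 0.258 in the CON libraries and 0.237, 0.303 and 0.280 in the 4H libraries. It overlapped between the groups, and the sign of its difference turned without CON replicate 2 or without 4H replicate 2. These sums are descriptions of mRNA, with no test, and say nothing of protein.

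**Figure D4:**
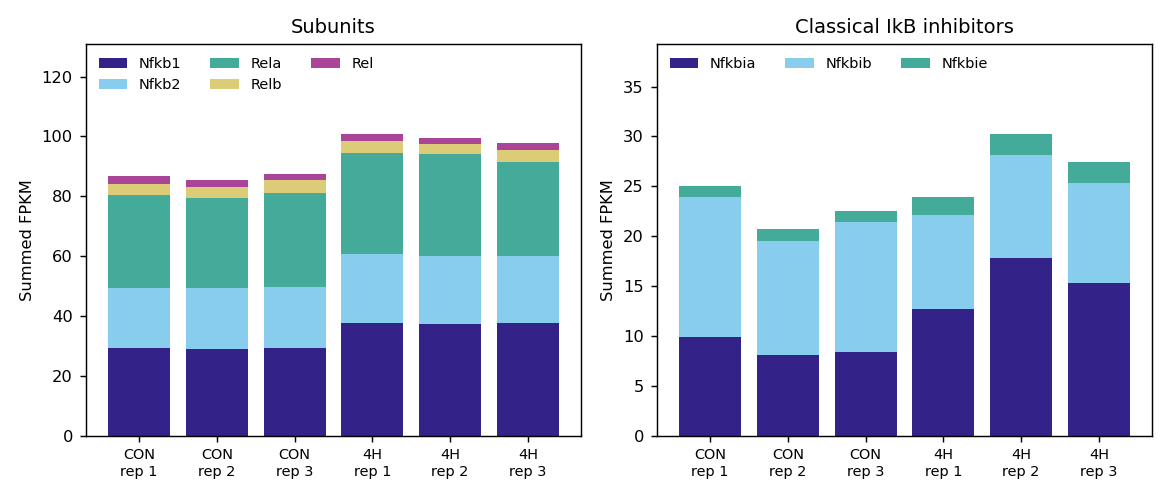
Summed FPKM (y axis, from 0) of the subunits and of the classical IκBs in each library, stacked by gene. The subunit totals lie between 85.5 and 87.5 in the CON libraries and between 97.8 and 101 in the 4H libraries, and the part of Nfkbia among the IκBs is larger in every 4H library.

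Genes around the members were taken from 6 lists of the pathway, and the lists were described by their counts. Among the ligands, the classical activators of NF-κB were near the floor. Tnf was at most 0.214 FPKM and Il1b at most 0.130 FPKM in any library, and 9 of the 12 ligands fell below the filter of a mean of 0.5 FPKM. Of the 3 tested, Il33, a nuclear alarmin of the IL-1 family, rose and no other passed, beside 22.6% of all genes that rose. Il33 was at 7.39, 6.42 and 7.14 FPKM without stretch, against 43.7, 43.2 and 41.9 FPKM after it, with a log2 fold change of 2.54 (SE 0.06, limma adjusted p = 6.07e-08). Its receptor gene Il1rl1 was too low to test, at 0.116 and 0.486 FPKM on average.

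Of the 25 tested receptors and adaptors, 5 rose and 7 fell, close to the shares of 22.6% and 24.1% over all genes, with a median log2 fold change of 0.07. With any single library left out, 4 or 5 fell. Il1rap, the shared chain of IL-1 family receptors, rose from 5.37 ± 0.34 to 9.03 ± 0.61 FPKM (SD, n = 3; log2 fold change 0.70, limma adjusted p = 0.000149), and the adaptor Traf5 from 3.16 ± 0.31 to 4.92 ± 0.39 FPKM (0.57, adjusted p = 0.00167). Traf5 overlaps Gm26879 on the other strand and Mir3473c on its own, and Il1rap overlaps Gm20319 on the other strand. The Toll-like receptor Tlr2 fell from 5.36 ± 0.95 to 3.90 ± 0.12 FPKM (log2 fold change -0.40, limma adjusted p = 0.0252) and the TNF receptor Tnfrsf1b from 9.20 ± 0.73 to 7.55 ± 0.88 FPKM (-0.27, adjusted p = 0.0415). The 4H libraries of Tnfrsf1b, at 7.23, 8.54 and 6.87 FPKM, lay below the CON libraries, the lowest of which was at 8.74 FPKM. Also called lower were Tnfrsf1a, Ltbr, Tlr4, Ripk1 and Myd88, with limma adjusted p values of 0.00174, 0.000532, 0.00145, 0.0139 and 0.0488. Neither the fall of Tlr2 nor that of Tnfrsf1b held under all alternatives. That of Tlr2 missed an adjusted p of 0.05 without CON replicates 1 (0.0778) or 2 (0.0782), without 4H replicates 1 (0.0568) or 2 (0.0660) and with no filter (0.0549), and its adjusted p ran from 0.00300 to 0.0782. That of Tnfrsf1b missed it with each CON library left out in turn (0.0587, 0.129 and 0.0654 without replicates 1, 2 and 3), without 4H replicates 1 (0.105) or 3 (0.125), and with no filter (0.0752), TPM (0.0699) and no trend (0.0569), and its adjusted p ran from 0.0122 to 0.129.

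In the list of the IKK complex and its upstream kinases, 4 of 12 rose and 1 fell, beside 22.6% and 24.1% of all genes. With single libraries left out, 3 or 4 rose and 1 or 2 fell. Chuk, Ikbkb and Ikbkg, the core of the IKK complex, did not pass the test, with adjusted p values from limma of 0.0961, 0.580 and 0.534. Map3k8 (the kinase Tpl2, which p105 holds inactive) was at 1.66, 1.04 and 1.25 FPKM without stretch, against 2.57, 2.80 and 1.98 FPKM after it (log2 fold change 0.71, limma adjusted p = 0.00772). Map3k14 (NIK, the kinase of the non-canonical branch) was at 1.19, 1.35 and 1.32 FPKM and at 2.29, 1.99 and 1.73 FPKM (0.48, adjusted p = 0.0107). Tab2, an adaptor of the kinase TAK1, fell from 35.6 ± 0.40 to 29.3 ± 1.27 FPKM (SD, n = 3; -0.28, adjusted p = 0.000850). Map3k14 shares its strand and some exon sequence with 1700028N14Rik.

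Of the 12 genes of the ubiquitin machinery, 1 rose and 2 fell, beside 22.6% and 24.1% of all genes. With single libraries left out, 0 or 1 rose and 1 to 3 fell. The F-box genes Btrc and Fbxw11, whose products recognise phosphorylated IκB, did not pass (adjusted p = 0.477 and 0.0817 from limma). Rbck1 and Sharpin, both parts of the linear ubiquitin ligase that builds chains on the IKK subunit NEMO, fell, Rbck1 from 32.0 ± 1.43 to 23.5 ± 0.54 FPKM (SD, n = 3; log2 fold change -0.44, limma adjusted p = 0.000117) and Sharpin from 18.3 ± 0.95 to 15.6 ± 1.00 FPKM (-0.23, adjusted p = 0.0182). The fall of Sharpin was no longer called with CON replicate 1 (0.0603), CON replicate 3 (0.0639) or 4H replicate 2 (0.0547) left out, and its adjusted p ran from 0.0120 to 0.0639. Ube2v1, a partner of the ubiquitin-conjugating enzyme Ube2n, was called higher at 52.8 ± 6.05 and 64.0 ± 3.06 FPKM (log2 fold change 0.28, limma adjusted p = 0.0170), but 83.0% of its stretches of 75 bases are found in another gene as well, and it overlaps Gm20431 on its strand and Gm11476 on the other, so its value is uncertain. That call was lost without CON replicate 1 (0.0596), CON replicate 2 (0.0583) or 4H replicate 3 (0.0540), and its adjusted p ran from 0.00112 to 0.0596.

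Beyond the members, 19 other inhibitors of the pathway could be tested, of which 4 rose and 4 fell, with a median log2 fold change of -0.11. These are nearly the shares of all genes, 22.6% and 24.1%. Zc3h12a, which encodes the RNase regnase-1 that degrades inflammatory mRNAs, rose from 5.39 ± 0.91 to 8.46 ± 0.55 FPKM (SD, n = 3; log2 fold change 0.62, limma adjusted p = 0.00227), and Tnip2, a binding partner of A20, from 6.53 ± 0.34 to 8.84 ± 0.62 FPKM (0.41, adjusted p = 0.00221). Commd1, which promotes the degradation of p65, fell from 16.4 ± 1.35 to 10.6 ± 1.71 FPKM (-0.61, adjusted p = 0.00227), and Nfkbil1, an IκB-like gene, from 15.5 ± 1.32 to 10.2 ± 0.83 FPKM (-0.58, adjusted p = 0.000553). Exons of Commd1 overlap Gm28048 on its strand and Zrsr1 on the other, and those of Nfkbil1 overlap Atp6v1g2 and Gm16181 on the other strand.

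Known target genes of NF-κB did not move as 1 block. Of 37 in the table, 23 could be tested, 12 rose and 5 fell, with a median log2 fold change of 0.45. Over the whole set of tested genes 22.6% rose and 24.1% fell. Of the 12, 5 also passed the fold threshold, which 2.61% of all tested genes passed upwards, and 1 of these, the metalloproteinase gene Mmp3 (0.222 and 1.26 FPKM on average), passed the filter only through its level in the 4H group. With a minimum mean of 1 FPKM 11 rose. Plau, which encodes urokinase, was at 8.42, 9.46 and 9.30 FPKM without stretch, against 43.7, 39.4 and 38.4 FPKM after it (log2 fold change 2.10, limma adjusted p = 1.99e-07). Ier3, an early response gene, was at 102, 86.7 and 96.3 FPKM and at 271, 295 and 302 FPKM (1.60, adjusted p = 6.56e-07). The chemokine gene Cxcl10 fell from 12.4 ± 2.06 to 7.56 ± 1.04 FPKM (SD, n = 3; -0.67, adjusted p = 0.00304), and Myc from 68.8 ± 1.77 to 49.2 ± 1.46 FPKM (-0.48, adjusted p = 2.03e-05). Exons of Cxcl10 overlap those of Art3 on the other strand. Many of these genes also answer to other transcription factors, and 14 of the 37, such as Cxcl2, Icam1 and Birc3, were too low to test.

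**Figure D5:**
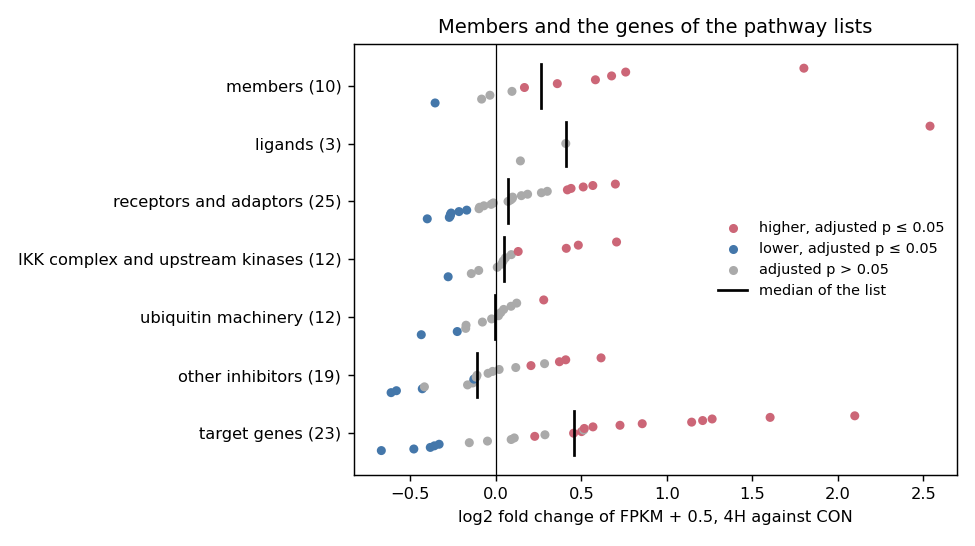
Log2 fold change of FPKM + 0.5 in 4H against CON (x axis) for the members and for the tested genes of the 6 pathway lists, 1 point per gene, coloured by adjusted p, with the list median as a black bar. The medians run from -0.11 for the other inhibitors to 0.45 for the target genes.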

How the data were processed

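The authors deposited 1 table of FPKM values with a column for each of the 6 C2C12 libraries. It was made from poly(A)-selected, strand-specific, paired-end libraries. The submitters' processing notes name the build mm10, while aligner, counting tool and annotation were not given in the sources used here. All columns were used, and no 2 were identical. The fold threshold of the study came with DESeq2, which needs counts and was not run. Genes whose mean reached 0.5 FPKM were fitted with limma 3.58.1 in R 4.3.3 (trend, two-sided) on log2(FPKM + 0.5), with Benjamini-Hochberg adjustment over the 11593 genes tested. The fit was checked on simulated data. Depth relative to the other libraries, as steps of the values below 0.1 FPKM show it, differed by at most 1.58%. This search used only natural log ratios below 0.1 in size and rested on 12 to 23 genes per pair. A larger difference in depth could not have been found. With 3 libraries a group no permutation p falls below 0.1, so sums and shares carry no test, in place of the one planned for them.

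The members and the gene lists were chosen with earlier results of these data known. The text names all members and, from each list, up to 2 rises and 2 falls with the largest log2 fold change among genes that passed and had a mean of at least 1 FPKM. Marker genes, the core IKK and F-box genes, Mmp3 and the low ligands, receptors and target genes do not follow from this rule. The same holds for the further receptors and adaptors that fell, the overlapping genes and the genes of the closing section. All of these were chosen after seeing their values. Positions and overlaps came from GENCODE M21 (GRCm38, the assembly of mm10), with which all 10 member identifiers match. Recurring sequence was counted as 75-base stretches of the longest transcript found in another gene. Less than 0.3% of those of each member recurred. Python 3.11.15, pandas 2.3.3, numpy 2.4.6 and matplotlib 3.10.9 were used. Alternatives were other pseudocounts and filters, TPM, median-of-ratios and quantile scaling, no trend, a replicate block and each library left out. One marker gene is not reported here.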

Additional observations from a re-analysis of the deposited data

How the results depend on the processing

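The number of members that rose ran from 5 to 7 over 16 alternatives, and 1 fell in each. It was 5 where a mean of 5 FPKM was required, which leaves out Nfkbie, Relb and Rel, and 7 where Rela passed. Among all genes, those past the fold threshold numbered 302 higher and 148 lower, 152 and 93 at that minimum, where fewer genes are tested, and 532 higher after rescaling to TPM (the cause was not tested), which also changes the scaling and the genes tested. With a pseudocount of 0.1 it was 413. Among the lists, a fit without trend called 2 ligands higher in place of 1, the minimum of 5 FPKM left 1 kinase higher in place of 4, TPM and quantile normalization each called 2 ubiquitin genes higher in place of 1, and with no filter 4 receptors and adaptors fell in place of 7. The cause was not tested for the change without trend or with quantile normalization.

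With single libraries left out, the receptors and adaptors that fell numbered 4 to 5, the kinases that fell 1 to 2, the ubiquitin genes that rose 0 to 1 and those that fell 1 to 3. The log2 difference of the summed subunits was 0.20, and 0.24 with TPM. That of the ratio of classical IκBs to subunits was 0.05, and it turned to -0.00222 without CON replicate 2 and -0.0245 without 4H replicate 2, with a highest value of 0.15.

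No pairing by replicate number was seen, and the deviations of same-numbered libraries correlated at 0.025, -0.093 and -0.126. The deviations are taken from the mean of only 3 libraries, so these correlations cannot tell whether libraries shared a culture or a batch. By title, 4H replicate 2 (4H3) shares its number with CON replicate 3 (C3), and that pair correlated at 0.176, the highest of all pairs. No fit was made with pairs by title. A fit with the replicate block called 2413 genes higher in place of 2617, and 6 members higher and 1 lower. Depth is unknown, so no limit from counting error can be given for the low members.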

Other observations

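The order of the libraries within a group was looked at after the values were seen. Nfkbia, Nfkbib and Nfkbiz shared the same order in both groups, replicate 1 above 3 above 2 in CON and replicate 2 above 3 above 1 in 4H. Nfkbia's own order was the one compared, so its match is by construction. Of all 11593 tested genes, 343 (2.96%) had the same orders. Among the 23 tested target genes 5 had them, namely Cxcl1, Cxcl5, Ccl2, Ptgs2 and Bcl2l1. The remaining members did not have them. Tnfaip3 and Nfkb2 shared a different order, replicate 3 above 2 above 1 in CON and replicate 1 above 2 above 3 in 4H. The chemokine gene Cxcl1 was at 43.3, 32.9 and 38.6 FPKM in CON replicates 1 to 3 and at 46.8, 82.9 and 65.1 FPKM in 4H replicates 1 to 3. Cxcl5 was at 167, 121 and 144 FPKM and at 128, 238 and 175 FPKM. What the libraries differed in was not tested.

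Among the 4 inhibitors that rose, the coefficient of variation within the 4H group was 16.9% for Nfkbia, 18.1% for Nfkbiz, 19.6% for Tnfaip3 and 8.29% for Nfkbie, whose mean was lower. In comparison, the 4682 tested genes with a mean of 5 to 20 FPKM had a median of 5.62% in the 4H group, and 1 in 10 of them exceeded 12.6%.

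Further genes of the target list, chosen after their values were seen, went in both directions. Lif, a cytokine of the IL-6 family, rose from 0.902 to 2.75 FPKM on average (log2 fold change 1.21, limma adjusted p = 7.98e-05), and the prostaglandin synthase gene Ptgs2 from 85.6 to 189.8 FPKM (1.15, adjusted p = 8.80e-07). Csf1 fell from 198 to 152 FPKM (-0.38, adjusted p = 5.88e-05). The survival gene Cflar, which blocks caspase-8, rose from 21.8 to 39.9 FPKM (0.86, adjusted p = 2.07e-06).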
